A study of Mus musculus with 40 samples.

Results

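The Rab GTPase genes were described across 40 RNA-seq libraries of mouse brain taken at postnatal day 21. A gene was a member when it was protein coding, when its symbol was Rab followed by a number and at most a letter and a digit, and when at least 5 of the 40 libraries held at least 10 counts of it. Of 59 genes with such a symbol 55 were members, of 16691 genes that met the same count minimum and 41388 genes listed in all; Rab17, Rab19, Rab25 and Rab44 did not reach it. The libraries came from RBP4-TRAP mice, which carried Tg(RBP4-cre)KL100 and a Cre-dependent EGFP/Rpl10a reporter that tags ribosomes in layer 5 pyramidal neurons, and from VGAT-TRAP mice, which carried the same reporter with Cre at the Slc32a1 locus and so tag ribosomes of any GABAergic neuron. Each line gave 5 pools of forebrains from both sexes, and each pool was divided into 4 fractions. These were whole cell homogenate (WCH), ribosome-bound RNA of the tagged neurons (TRAP), a synaptoneurosome fraction (SNF) and the ribosome-bound RNA purified from that fraction (SynapTRAP, ST). The SNF is a crude preparation of pinched-off synaptic endings. The labels give cortex as the tissue, while the study's methods describe forebrain that probably held some dorsal striatum. All animals carried Cre and the reporter, so that no untagged animals served as a control for RNA that sticks to the beads.

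Rab proteins are small GTPases that mark membrane compartments. In the GTP-bound form, set by exchange factors and ended by GTPase-activating proteins, they sit on a membrane through prenylated cysteines and recruit effectors that move, tether and fuse vesicles; GDP dissociation inhibitors carry the inactive form through the cytosol. In neurons the Rab3 and Rab27 proteins act on synaptic and dense-core vesicles before release, while Rab1, Rab5, Rab7 and Rab11 serve the endoplasmic reticulum to Golgi step, early endosomes, late endosomes and recycling endosomes that every cell uses.

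Counts on genes ranged from 14259535 to 22037703 per library, and from 8950847 to 21976631 after 390 mitochondrial, rRNA and tRNA genes were left out, so that 1 count was worth 0.0455 to 0.112 counts per 1000000 counts (cpm). Each line's TRAP libraries carried the markers of the tagged neurons. The 5 GABAergic markers summed to 5755 to 7871 cpm in VGAT TRAP and 995 to 1411 in VGAT WCH. The 4 layer 5 pyramidal markers summed to 665 to 1034 cpm in RBP4 TRAP and 493 to 720 in RBP4 WCH. ST libraries were less separate, with GABAergic sums of 748 to 2688 cpm in VGAT ST against 780 to 1361 in VGAT SNF, and layer 5 sums of 653 to 1202 cpm in RBP4 ST against 729 to 1100 in RBP4 SNF. The 5 endothelial markers summed to at most 58.0 cpm outside ST and to 6.33 to 400 in the ST libraries. The library labelled RBP4 ST replicate 4 held 49.9 cpm of Slc32a1, the gene of the vesicular GABA transporter, where the rest of its group had 10.9 to 19.7 and VGAT ST 23.3 to 51.4. Its summed GABAergic markers, 490 cpm, lay within the 373 to 827 of that group. Calls that rest on it are given with and without it. The SNF libraries of replicate 3 in both lines stood apart as well, with 40.2% and 41.9% of their counts on mitochondrial genes (11.2% to 19.4% in the other SNF libraries) and astrocyte marker sums of 20250 and 20390 cpm (7211 to 10460 in the others).

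The coding ends of the 4 Rab3 genes, which are close in sequence and of which 2 were called between the lines in opposite directions and 2 were not, are shown first with those of Rab27a and Rab37, secretory Rab genes that were called. They hold the cysteine codons whose residues are prenylated. Each is the last 30 bases of the coding sequence on the gene's strand (GENCODE M21, GRCm38), stop codon included, with cysteine codons in capitals. All these ends lie in 1 exon each.
Rab3a, chr8:70758059-70758088, plus strand: gcgccacctcatcaggatTGTgccTGCtga
Rab3b, chr4:108940784-108940813, plus strand: cctctgctgcagcagaacTGCtctTGTtag
Rab3c, chr13:110061815-110061844, minus strand: cctccaccacagcccaacTGTggcTGCtaa
Rab3d, chr9:21910484-21910513, minus strand: cccccacagccgagcagcTGCagcTGTtag
Rab27a, chr9:73095427-73095456, plus strand: gagaaggagaaggggttgTGTggcTGTtga
Rab37, chr11:115160711-115160740, plus strand: aagcgctccagcTGCTGCtcctttgtgtga
All 6 ends held 2 cysteine codons, separated by 1 other codon and followed directly by the stop codon in the 4 Rab3 genes and Rab27a, and adjacent to each other and farther from the stop codon in Rab37. Over the aligned coding sequence the Rab3 genes shared 74.2% to 77.5% of bases with each other, and 55.8% to 58.7% with Rab27a or Rab37. Reads of 50 bases counted only where they mapped to 1 place could therefore tell the Rab3 genes apart over most of their length: 7.7% of the 50-base windows of Rab3b were shared with another annotated gene, an antisense transcript.

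In the tagged neurons and in homogenate the family was led by few genes. All 55 members together took 6883 ± 585 cpm of RBP4 WCH and 7401 ± 709 of VGAT WCH (SD, n = 5). They took 7176 ± 746 and 7982 ± 819 cpm of the TRAP libraries and 4169 ± 503 and 3948 ± 258 of the SNF libraries. The 15 genes of endoplasmic reticulum and Golgi traffic held the largest part, 3367 ± 332 cpm in RBP4 WCH, ahead of the 8 genes of regulated secretion with 1241 ± 114. The study's authors describe reads strongly biased towards the 3' end, so that dividing by gene length can place short genes higher. Lengths were 3728 bases for Rab6a, 5031 for Rab6b and 2226 for Rab3a, and the order by cpm alone can differ. Per kilobase of gene length, Rab6a, a Golgi Rab, stood first in homogenate. It was at 284 ± 31 cpm per kb in RBP4 WCH and 303 ± 48.2 in VGAT WCH. Its brain-enriched paralogue Rab6b and the synaptic vesicle gene Rab3a followed at 218 ± 27.7 and 214 ± 33.4 cpm per kb in RBP4 WCH, a difference within their spread. In TRAP, Rab3a came first, at 416 ± 62.6 cpm per kb with RBP4 and 449 ± 97 with VGAT. In ST it was Rab6b, at 214 ± 50.5 and 220.4 ± 22.7 cpm per kb. At the other end Rab4b, Rab20 and Rab38 reached 10 counts in only 13, 7 and 15 of the 40 libraries. Rab3b changed place most visibly between the lines: its TRAP level ranked 14 of 55 per kilobase in the RBP4 line (41.4 ± 5.62 cpm per kb) and 3 of 55 in the VGAT line (243 ± 44).

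The comparison of TRAP between the lines asked which Rab genes ribosomes of layer 5 pyramidal and of GABAergic neurons carried at different levels. Secretory Rab genes stood on both sides. Rab3b, Rab37, Rab27a and Rab27b, with the Golgi gene Rab30, were higher in the GABAergic neurons; Rab3d and Rab26, with the Golgi genes Rab33a and Rab36, were higher in the pyramidal neurons. Of the 55 members 6 were called higher and 7 lower in RBP4 TRAP (edgeR's quasi-likelihood test, Benjamini-Hochberg adjusted p of at most 0.05 over 16898 genes), where 12.9% and 15.1% of all genes tested were called. The median difference of the members was -0.04 on the log2 scale and that of all genes -0.01. Groups did not overlap for 14 of the 55 genes, 6 higher and 8 lower in RBP4 TRAP (9.58% and 13.2% of all genes). Among the 8 genes of regulated secretion, 2 were called higher, 4 lower and 2, Rab3a and Rab3c, were not called. In WCH no member was called in either direction (0.00592% of all genes were called higher and 0.00592% lower). At an unadjusted p under 0.05 there were 0 members higher and 1 lower (1.46% and 1.07% of all genes), and DESeq2 also called 0. The Rab3 and Rab27 genes lay there between -0.24 for Rab3c and 0.15 for Rab27a, with -0.23 for Rab27b, -0.18 for Rab3a, 0.091 for Rab3b and 0.036 for Rab3d.

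Rab3b was the member with the clearest difference. Its TRAP libraries held 140.1, 136, 124, 176 and 153 cpm in the 5 RBP4 pools and 866, 973, 596, 976 and 876 cpm in the 5 VGAT pools. Every VGAT library was far above every RBP4 library, and the level was 5.87-fold higher in VGAT TRAP (log2 -2.55, SE 0.24, adjusted p = 1.19e-09, RBP4 over VGAT). In the homogenates of the same pools the gene did not differ by the test, with 215, 212, 203, 239.7 and 190 cpm in RBP4 WCH and 223, 198, 169, 214 and 191 in VGAT WCH (log2 0.091, SE 0.23, adjusted p = 1). The other Rab3 genes behaved differently from it and from each other. Rab3a, the main Rab of synaptic vesicles, was at 759, 955, 962, 1123 and 832 cpm in RBP4 TRAP and 1339, 1025, 812, 1014 and 811 in VGAT TRAP, ranges that overlapped (log2 -0.11, SE 0.19, adjusted p = 0.701). Rab3c, another Rab of synaptic vesicles, gave log2 -0.18 with an adjusted p of 0.376. Rab3d, known from secretory granules of exocrine cells, was a low gene that went the opposite way, at 11, 11, 10.5, 11.7 and 11 cpm in RBP4 TRAP and 4.4, 3.8, 5.87, 4.12 and 4.67 in VGAT TRAP. No library of the groups overlapped, and the RBP4 level was 2.41-fold the VGAT level (log2 1.27, SE 0.17, adjusted p = 9.31e-07).

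Rab27a and Rab27b, which dock secretory granules and multivesicular bodies at the plasma membrane, were both higher in VGAT TRAP. Rab27a was at 2.5, 2.13, 2.13, 2.73 and 3.59 cpm in RBP4 TRAP and 7.78, 7.73, 5.36, 5.39 and 6.37 in VGAT TRAP, without overlap (log2 -1.32, SE 0.24, adjusted p = 8.49e-05). Rab27b, the more abundant of the pair here, was at 78.9, 81.3, 57.5, 66.5 and 46.8 and 122, 122, 85.9, 107 and 103 cpm, again without overlap though by a narrow gap (log2 -0.70, SE 0.18, adjusted p = 0.00386). Rab37, a Rab of secretory granules, was near the limit of detection in RBP4 TRAP, at 0.715, 0.347, 0.467, 0.0455 and 1.12 cpm, where the 5 libraries held 1 to 20 counts, and at 2.93, 5.11, 1.27, 2.75 and 2.19 cpm in VGAT TRAP. The groups did not overlap (log2 -2.42, SE 0.48, adjusted p = 0.000223). Rab26, found on synaptic and secretory vesicles and linked to their autophagy, went the other way, at 49.2, 67.1, 59.6, 64.6 and 51 cpm in RBP4 TRAP and 29.1, 28.1, 30.2, 16.3 and 21.6 in VGAT TRAP (log2 1.22, SE 0.21, adjusted p = 4.26e-05).

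**Figure D1:**
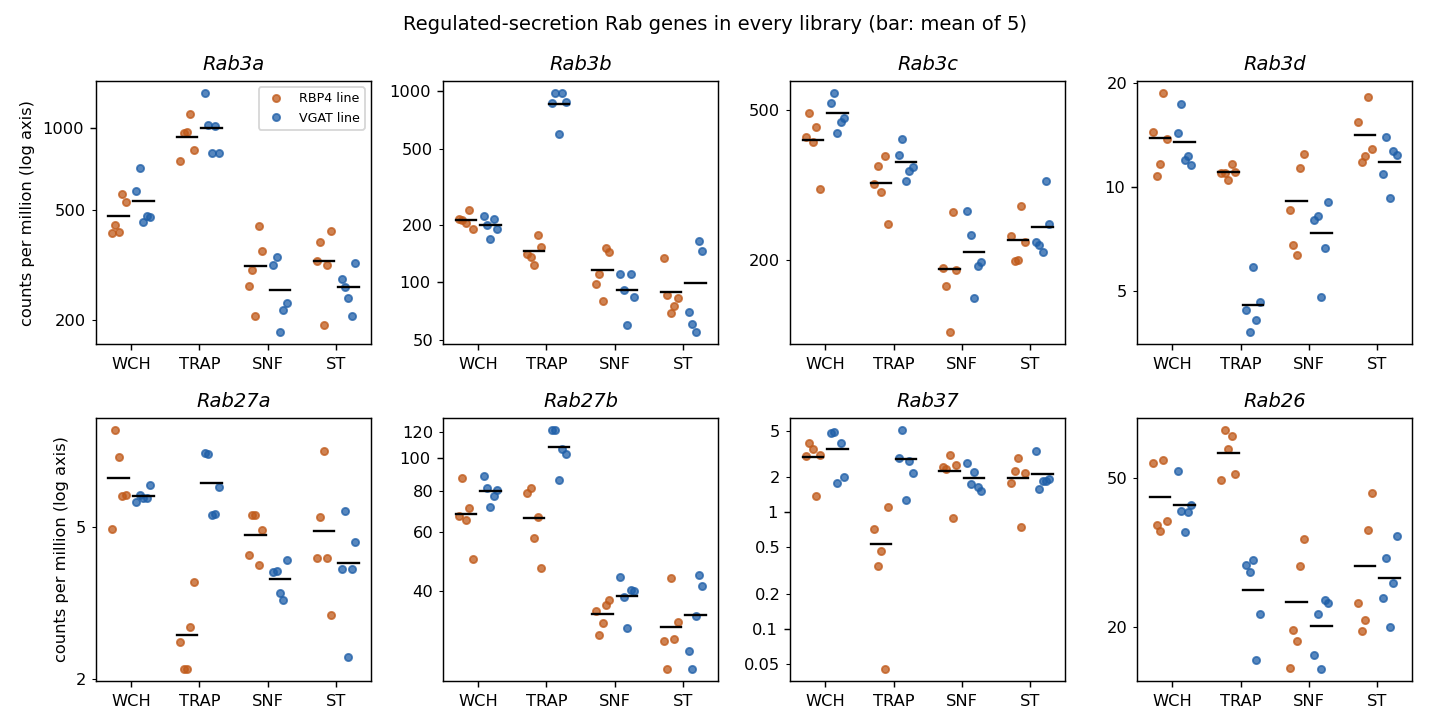
Level in cpm (log axis) of the 8 Rab genes of regulated secretion in every library, by fraction, with the RBP4 line in orange, the VGAT line in blue and a bar at the mean of 5 pools. In TRAP the lines separate for Rab3b, Rab3d, Rab27a, Rab27b, Rab37 and Rab26, in directions that differ by gene, while in the other fractions their points overlap.

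Of the 15 genes of endoplasmic reticulum and Golgi traffic, 3 had TRAP groups that did not overlap, 2 higher and 1 lower in RBP4 TRAP, and the same 3 were called (20% of the class, beside the shares of all genes given above). Rab33a, which acts on vesicles from the Golgi that supply growing axons, was at 81.9, 105, 115, 108 and 113 cpm in RBP4 TRAP and 47.2, 49.7, 46.9, 47.7 and 48.5 in VGAT TRAP (log2 1.12, SE 0.17, adjusted p = 8.48e-06). Rab36, which positions late endosomes and Golgi membranes, was at 45.5, 44.6, 47.9, 50.7 and 43.1 and 29.8, 27.7, 24, 27.2 and 28.6 cpm (log2 0.76, SE 0.14, adjusted p = 0.000115). Rab30, a Rab of the Golgi, was lower in RBP4 TRAP, at 12.3, 13.9, 11.8, 7.96 and 10.6 cpm, than in VGAT TRAP, at 23.4, 27.4, 21.6, 22 and 19.8 (log2 -1.01, SE 0.17, adjusted p = 2.05e-05). The remaining called members were Rab31 (1.09) and Rab8b (0.54) on the RBP4 side and Rab7b (-1.19) and Rab14 (-0.33) on the VGAT side. Of these, only Rab14 had groups that did not overlap, and it was called in none of the 5 fits that left out a replicate number, nor with TMM factors; Rab7b and Rab8b each kept the call in 2 of those 5 fits. These 4 genes were singled out after their values were seen. Rab31 was lower in TRAP than in WCH in both lines, as were the sums of glial markers. Median astrocyte sums were 535 cpm in RBP4 TRAP and 206 in VGAT TRAP, and median oligodendrocyte sums 823 and 507. Microglia sums went the other way (14.5 and 46.4 cpm), and the ranges of the lines overlapped for each list. The part of glial RNA in the Rab31 difference was not tested.

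Within each line, TRAP against WCH set the tagged neurons beside all cells of the tissue. Rab3a, Rab1b and Rab24 were higher in TRAP in both lines, and Rab7b, Rab32, Rab31, Rab8b, Rab23 and Rab2b were lower in both. Of these, Rab23 and Rab2b lost the RBP4 call with TMM factors (adjusted p 0.17 and 0.363). They lost it with DESeq2 as well (adjusted p 0.155 and 0.355). In the RBP4 line 6 members were called higher and 11 lower (8.37% and 31.5% of 17043 genes), and in the VGAT line 8 higher and 19 lower (21% and 41.8% of 16990 genes). This balance rested on the scaling, since the median of all genes was at -0.34 and -0.31. With TMM factors, which moved these medians to -0.05 and -0.06, the split was 14 higher and 6 lower in the RBP4 line and 19 higher and 9 lower in the VGAT line. DESeq2 gave 15 and 6, and 19 and 12. Of all genes, TMM factors called 3296 higher and 3815 lower in the RBP4 line, and 4987 and 5530 in the VGAT line. With DESeq2 these were 3536 and 4159, and 4972 and 5796. The median member lay 0.30 and 0.24 above the median gene in the respective lines. In the RBP4 line the number of calls fell from 17 to 9, 10 and 10 without replicate 2, 3 or 4, and rose to 20 without replicate 5, whose TRAP library held the most oligodendrocyte RNA.

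Rab3a was at 413, 441, 418, 576 and 536 cpm in RBP4 WCH, below every RBP4 TRAP library given above (log2 0.96, SE 0.22, adjusted p = 0.00133). In VGAT WCH it was at 586, 716, 452, 476 and 475 cpm, again below every TRAP library (log2 0.89, SE 0.19, adjusted p = 0.000343). Rab1b, one of the Rabs of endoplasmic reticulum to Golgi transport, was at 33.2, 32.2, 30.5, 44.2 and 39.2 cpm in RBP4 WCH and 45.1, 65.5, 53.9, 73.3 and 58.5 in RBP4 TRAP (log2 0.72, SE 0.19, adjusted p = 0.00378). It gave log2 0.56 with an adjusted p of 0.00201 in the VGAT line. Rab24, linked to autophagy, gave log2 0.80 with an adjusted p of 0.0167 and log2 0.97 with an adjusted p of 9.47e-06, but 62.4% of its exon bases lie opposite Prelid1 and the kit did not mark strand, so that its counts are uncertain. Rab4a, of rapid endosome recycling, was called higher in the VGAT line (log2 0.78, SE 0.15, adjusted p = 0.000109), where its groups did not overlap, and gave log2 0.30 with an adjusted p of 0.195 in the RBP4 line. The calls of Rab1a (0.40), Rab7 (0.45) and Rab11a (0.46) in the RBP4 line, the Rabs of the Golgi, late endosome and recycling endosome steps, were each kept in 1 of the 5 fits that left out a replicate number.

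Rab7b, Rab32 and Rab31, of endosomes and lysosomes, were lower in TRAP without overlap in both lines. The secretory genes Rab37 and Rab27a in the RBP4 line and Rab3d in the VGAT line, whose values are given with the difference between the lines, were among the lowest as well. Rab7b, of transport from endosomes to the Golgi, was at 12, 17.1, 14, 12.2 and 10.1 cpm in RBP4 WCH and 0.536, 0.891, 1.14, 0.637 and 2.02 in RBP4 TRAP (log2 -3.64, SE 0.31, adjusted p = 1.27e-07). With VGAT it was at 16.5, 14.4, 16.1, 15.6 and 19.6 cpm in WCH and 1.85, 0.416, 4.14, 1.96 and 3.5 in TRAP (log2 -2.79, SE 0.30, adjusted p = 1.42e-07). Rab32, of lysosome-related organelles, fell from 2.36, 2.36, 2.67, 2.56 and 1.79 cpm in RBP4 WCH to 0.596, 0.148, 0.208, 0.091 and 0.672 in RBP4 TRAP (log2 -2.78, SE 0.52, adjusted p = 0.000235). There 1 count was worth 0.0455 to 0.0596 cpm, so that the TRAP levels of Rab32 were near the limit of detection. Rab31, of traffic between Golgi and endosomes, gave log2 -1.35 with an adjusted p of 0.00134 and log2 -2.35 with an adjusted p of 6.83e-08, without overlap of WCH and TRAP in either line. Markers of other cells moved the same way. The 5 microglia markers summed to 105 to 215 cpm in RBP4 WCH and 9.51 to 34.1 in RBP4 TRAP, and to 172 to 253 in VGAT WCH and 18.8 to 79.7 in VGAT TRAP. The 5 astrocyte markers summed to 2175 to 4311 and 343 to 1186 cpm in the RBP4 line and to 1821 to 3579 and 131 to 825 in the VGAT line. The 5 oligodendrocyte markers summed to 5839 to 8876 cpm in RBP4 WCH and 341 to 4702 in RBP4 TRAP, with the highest TRAP sum in replicate 5. The part of these cells in the Rab differences was not tested.

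Whether TRAP against WCH itself differed between the lines was tested in 1 fit over all 40 libraries, an alternative chosen after seeing the data. Of the 55 members 8 differed (12.6% of 17728 genes did). Rab3b was lower in TRAP in all 5 RBP4 pools (log2 -0.54, SE 0.19, adjusted p = 0.0295), a call that held in 1 of the 5 fits without a replicate number and not with TMM factors. It was higher in TRAP in all 5 VGAT pools (log2 2.11, SE 0.26, adjusted p = 7.4e-07). The difference of the log2 changes was -2.65 with an adjusted p of 9.69e-08. Rab27a (-1.47, adjusted p 0.000578), Rab37 (-2.19, 0.00932) and Rab30 (-0.998, 0.00102) also had the higher signed value of TRAP over WCH in the VGAT line. Rab3d (1.24, adjusted p 0.000792), Rab26 (1.15, 0.00761), Rab33a (1.05, 0.00608) and Rab36 (0.61, 0.0489) had the higher signed value in the RBP4 line. Rab3d fell in TRAP in 5 of 5 VGAT pools (log2 -1.57, SE 0.18, adjusted p = 2.68e-07), and with RBP4 it was not called (log2 -0.33 with an adjusted p of 0.204). Rab27a and Rab37 were lower in TRAP in the RBP4 line, at -1.36 and -2.47 on the log2 scale with adjusted p of 0.000338 and 0.000574. VGAT pools gave for Rab27a log2 0.11 with an adjusted p of 0.608 and for Rab37 log2 -0.28 with an adjusted p of 0.468. Neither of these was called. The median of all genes was -0.31 with VGAT, below the Rab27a value and near that of Rab37. How much each line adds to the difference was not tested for either gene. Rab3c and Rab27b were at -0.38 and -0.04 in the RBP4 line, neither called, and at -0.43 and 0.44 in the VGAT line, both called (adjusted p 0.0124 and 0.0167); Rab8b was at -1.30 in the VGAT line (adjusted p 3.12e-08) with no overlap.

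**Figure D2:**
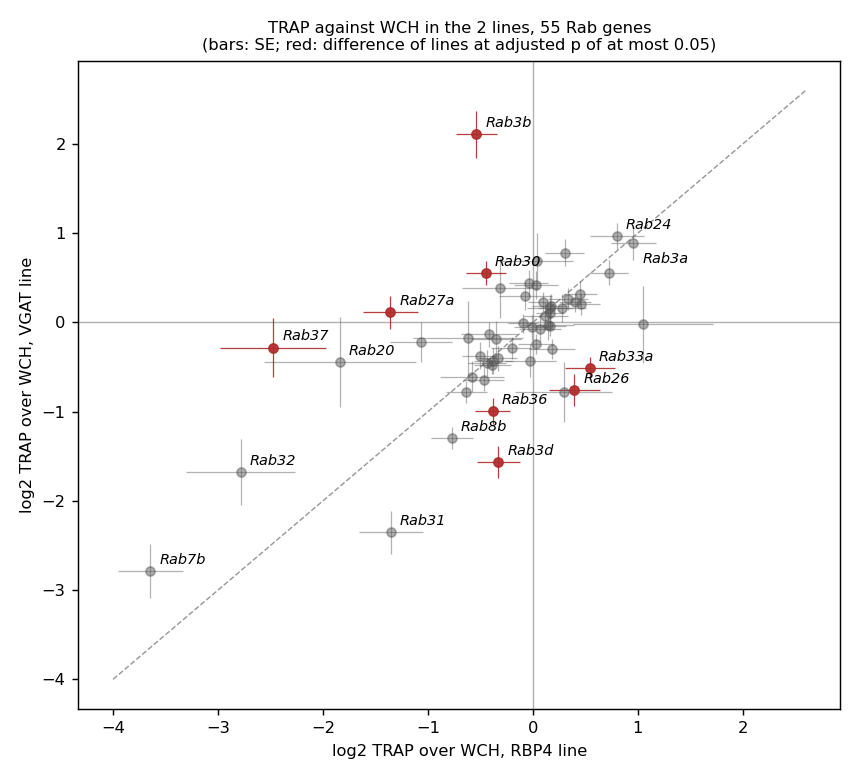
Log2 TRAP over WCH of the 55 Rab genes in the RBP4 line (horizontal) and the VGAT line (vertical), with standard errors and a dashed line of equal change. The 8 genes in red differed between the lines: Rab3b, Rab30, Rab27a and Rab37 lie above the dashed line, and Rab3d, Rab26, Rab33a and Rab36 below it.

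SNF against WCH set the synaptic fraction beside whole tissue, before any purification of ribosomes. Most Rab genes were lower in the fraction. Of the 55 members 34 were called lower and 1 higher with RBP4 (36.1% and 13.4% of all genes tested), and 43 lower and 1 higher with VGAT (45.2% and 19.3%). All 34 called lower in the RBP4 line were among the 43. The median member was at -0.70 and -0.82 against -0.50 and -0.52 for all genes, or 0.20 and 0.30 below the median gene. With TMM factors the split was 2 higher and 19 lower in the RBP4 line and 2 higher and 28 lower in the VGAT line, and with DESeq2 4 and 17, and 2 and 25. Of all genes, TMM factors called 3284 higher and 3048 lower in the RBP4 line, and 4187 and 4747 in the VGAT line. With DESeq2 these were 3781 and 2545, and 4572 and 3929. The median member stayed below the median gene by 0.18 and 0.30, and by 0.19 and 0.29. All 8 secretory genes were negative in both lines, with 6 of them called in RBP4 pools and 8 in VGAT pools, and the medians of this class were -0.73 and -1.06. Of the 11 genes of exocytic and recycling carriers 4 and 7 were called lower, with medians of -0.24 and -0.51.

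Among the abundant genes, Rab1a was at 347, 348, 320.5, 339 and 265 cpm in RBP4 WCH and 175, 151, 151, 191 and 176 in RBP4 SNF, without overlap (log2 -0.94, SE 0.15, adjusted p = 0.000151). The VGAT line gave log2 -1.04 with an adjusted p of 1.58e-07 for it. Rab3c gave log2 -1.14 with an adjusted p of 0.000156 and log2 -1.22 with an adjusted p of 5.67e-07, and Rab5a, of early endosome fusion, log2 -1.39 with an adjusted p of 0.000175 and log2 -1.25 with an adjusted p of 1.26e-06. Rab11a, of recycling endosomes, Rab12, of traffic to lysosomes, and Rab18, of the endoplasmic reticulum and lipid droplets, were at -1.21, -1.15 and -0.98 in the VGAT line (adjusted p 1.58e-07, 1.9e-07 and 3.49e-07), and Rab36 at -0.99 in the RBP4 line (0.000156). Rab3a was at -0.60 and -1.08 (adjusted p 0.0233 and 3.86e-05). Rab3b was at -0.86 and -1.13, Rab3d at -0.61 and -0.87 and Rab27b at -1.001 and -1.04, all called in both lines. Rab27a was at -0.49 and -0.71, called in the VGAT line. In the RBP4 line the values of Rab3a, Rab3d and Rab27a lay near the median of all genes, -0.50.

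Rab13, which delivers proteins to cell junctions and recycling carriers, was the member called higher in both lines. It was at 3.71, 2.12, 2.67, 3.21 and 2.41 cpm in RBP4 WCH and 4.46, 4.63, 10.6, 5.11 and 4.49 in RBP4 SNF (log2 1.04, SE 0.34, adjusted p = 0.0147). For VGAT it was at 2.71, 2.74, 3.73, 2.32 and 3.21 and 3.68, 4.63, 14.5, 5.5 and 5.09 cpm (log2 1.16, SE 0.31, adjusted p = 0.00263). The fraction was higher in all 5 pools of each line, but the highest SNF values were those of replicate 3, the libraries that stood apart in astrocyte markers. Without replicate 3 the change was 0.71 with an adjusted p of 0.115 in the RBP4 line and 0.78 with an adjusted p of 0.00657 in the VGAT line. The SNF libraries as a whole held more glial RNA than WCH, with oligodendrocyte sums of 11410 to 17220 cpm in RBP4 SNF and 13860 to 16200 in VGAT SNF, against 5839 to 8876 and 5872 to 7512 in WCH. Astrocyte sums were 7291 to 20250 cpm in RBP4 SNF and 7211 to 20390 in VGAT SNF. The part of glial RNA in the Rab differences was not tested. In such bulk samples fewer cells or processes of a type cannot be told apart from less of an RNA per cell. No member's SNF to WCH change differed between the lines in the fit over all libraries (0% of 17728 genes did; 1 member had an unadjusted p under 0.05).

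**Figure D3:**
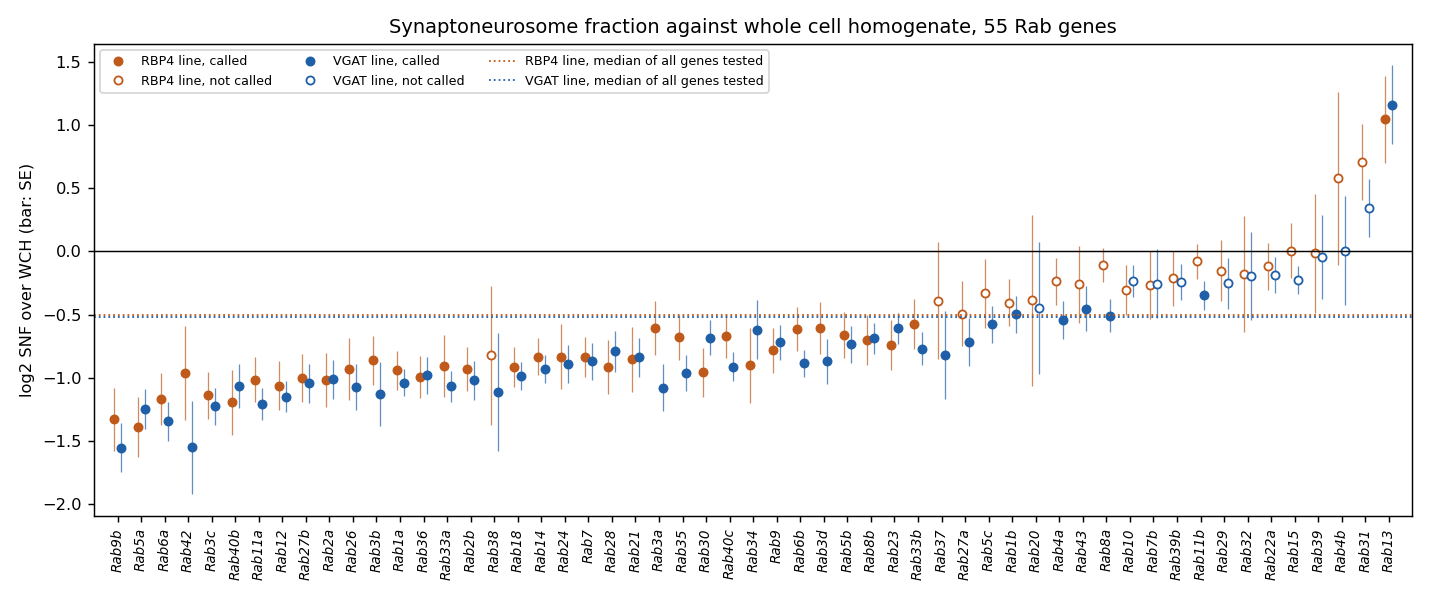
Log2 SNF over WCH of the 55 Rab genes, ordered by the sum over the lines, with standard errors (filled points were called, open points were not) and dotted lines at the median of all genes tested. Most members sit below 0 and below the dotted lines in both lines, and Rab13 stands alone among the filled points above 0.

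ST against SNF asked which Rab RNAs in the synaptic fraction were bound to tagged ribosomes more than the fraction as a whole. Genes of different compartments, Rab1b, Rab22a, Rab6b and Rab40c, were called higher in ST in both lines. These were all the calls of the RBP4 line, 4 higher and 0 lower (5.64% and 5.46% of all genes). At an unadjusted p under 0.05 there were 7 and 1 (11.7% and 14% of all genes). DESeq2 called 5 members higher and 0 lower, beside 1334 and 1315 of 17043 genes. With VGAT, 9 members were called higher and 2 lower (16.3% and 11.2%). Median changes of the members were 0.12 and 0.09, and those of all genes -0.05 and 0.08. Without the RBP4 ST library labelled replicate 4, 2 members were called in the RBP4 line, Rab1b and Rab22a (log2 0.66 and 0.76). Without a whole replicate number there were 2 calls without replicate 1 or 3 and 1 without replicate 4, and in the VGAT line 7 higher and 0 lower without replicate 1.

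Rab22a, of early endosomes and their recycling tubules, was at 54.5, 42, 67.4, 50.1 and 47.7 cpm in RBP4 SNF and 83.9, 69.8, 131, 118 and 71.2 in RBP4 ST, without overlap (log2 0.86, SE 0.19, adjusted p = 0.00435). VGAT libraries were at 50.6, 46.5, 76.8, 44.2 and 45.8 and 97.4, 92.4, 118, 108 and 84.7 cpm (log2 0.93, SE 0.14, adjusted p = 3.14e-05). Rab1b was at 23.5, 23.5, 23.7, 34.8 and 29.9 cpm in RBP4 SNF and 44.4, 43.7, 41.9, 70.1 and 40.8 in RBP4 ST, the highest of them in the library labelled replicate 4 (log2 0.83, SE 0.19, adjusted p = 0.00527). It gave log2 0.97 with an adjusted p of 2.52e-05 in the VGAT line. Rab6b was at 718, 629, 644, 639 and 614 cpm in VGAT SNF and 1107, 1038, 1050, 1307 and 1042 in VGAT ST (log2 0.77, SE 0.10, adjusted p = 7.29e-06). It gave log2 0.58 with an adjusted p of 0.0316 in the RBP4 line. Rab40c, which carries a SOCS box of ubiquitin ligases, gave log2 0.66 with an adjusted p of 0.0152 and log2 0.85 with an adjusted p of 7.54e-06. These 4 genes were higher in ST than in SNF in 5 of 5 pools of both lines. Rab1b kept the call in all 6 fits of the RBP4 line that left out a replicate number or the library labelled replicate 4, Rab22a in 5 of them, and all 4 genes in all 5 fits of the VGAT line. Rab6b and Rab40c each kept the call in 2 of those 6 fits.

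Rab15, of endosome recycling in neurons, was at 134, 133, 167, 121 and 129 cpm in VGAT SNF and 288, 254, 307, 279.7 and 227 in VGAT ST (log2 0.99, SE 0.11, adjusted p = 8.72e-07). In the RBP4 line Rab15 was called with the pool as a block (adjusted p 0.0195) and not without it (0.0655). Rab43, a Golgi Rab, gave log2 1.198 with an adjusted p of 2.1e-05, but 74.5% of the 50-base windows of Rab43 occur in an overlapping transcript, so that its counts are uncertain. Rab9b, of late endosomes, was lower in ST, at 14.7, 11.9, 8.71, 12.7 and 11.3 cpm in VGAT SNF and 4.1, 6.52, 6.44, 10.9 and 7.94 in VGAT ST, ranges that overlapped (log2 -0.74, SE 0.20, adjusted p = 0.00729). Rab39b, a Golgi Rab, was also lower (log2 -0.57 with an adjusted p of 0.00428). Both lost the call without replicate 1. With the mitochondrial, rRNA and tRNA genes left in, 19 members were called higher and 0 lower in the VGAT line. Of 16759 genes, 4726 were then called higher and 917 lower, and the median of all genes was 0.32. Of the secretory genes Rab3d was called higher in the VGAT line (log2 0.68, SE 0.18, adjusted p = 0.0056) and gave log2 0.63 with an adjusted p of 0.0508 in the RBP4 line. There it was called with the pool as a block (adjusted p 0.0128). Rab3a (0.063 and 0.032), Rab3b (-0.38 and 0.12), Rab3c (0.26 and 0.22), Rab27a (0.034 and 0.14) and Rab27b (-0.12 and -0.20) were called in neither line. Oligodendrocyte markers also rose in level from SNF to ST, with sums of 27360 to 37400 cpm in RBP4 ST and 24510 to 42630 in VGAT ST, above every SNF library. Median microglia sums fell, from 339 to 196 cpm with RBP4 and from 485 to 322 with VGAT. Median astrocyte sums fell from 9136 to 5726 cpm with RBP4 and rose from 9164 to 11390 with VGAT. The part of these glial cells in the Rab differences was not tested. No member's ST to SNF change differed between the lines (0% of 17728 genes did; 2 members had an unadjusted p under 0.05).

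**Figure D4:**
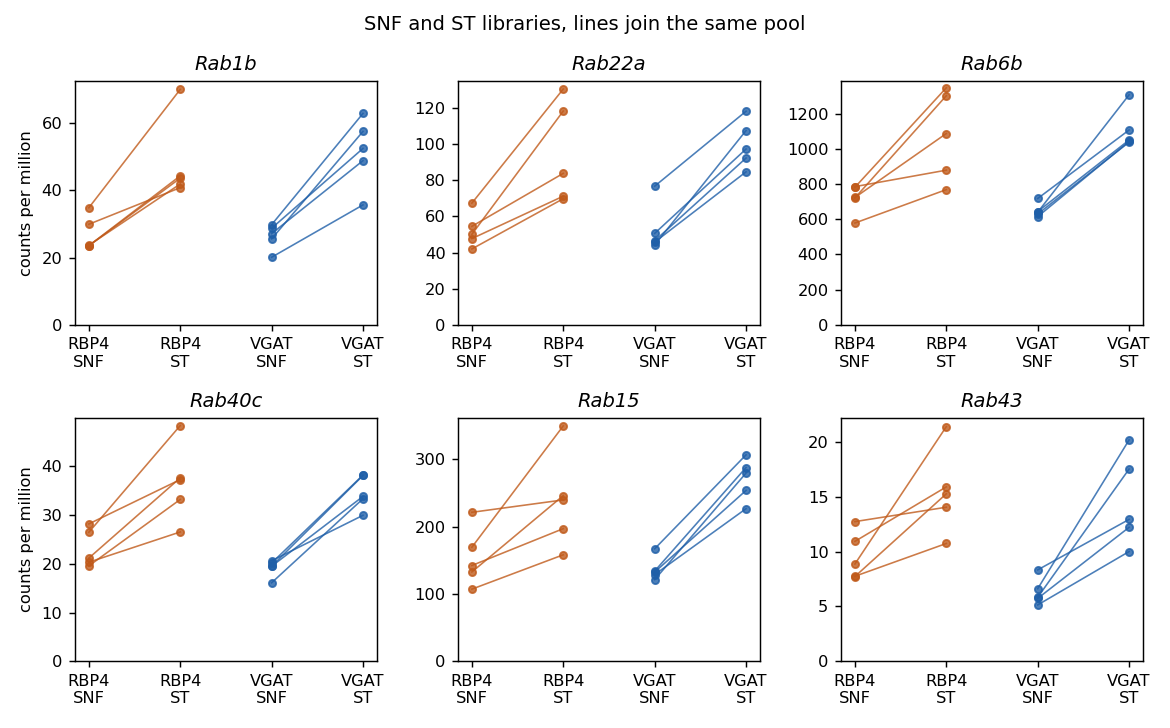
Level in cpm of 6 Rab genes in SNF and ST, with a line for each of the 5 pools of the RBP4 line (orange) and the VGAT line (blue). Rab1b, Rab22a, Rab6b and Rab40c were higher in ST than in SNF in 5 of 5 pools of both lines and were called in both; Rab15 and Rab43 were called in the VGAT line, with log2 0.62 and 0.69 and no call in the RBP4 line.

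In ST, no Rab gene was called between the lines (0.0592% of all genes were higher and 0.266% lower). At an unadjusted p under 0.05 there were 3 members higher and 2 lower in RBP4 ST (2.95% and 8.52% of all genes), and DESeq2 called 0. Rab3b was at 134, 85.9, 69.1, 74.9 and 83 cpm in RBP4 ST and 70.1, 60.5, 54.9, 165 and 145 in VGAT ST (log2 -0.15, SE 0.23, adjusted p = 0.851), and the difference turned to 0.17 without replicate 4 and 0.057 without replicate 5. The highest VGAT ST values were those of replicates 4 and 5, whose GABAergic marker sums were also the highest, 2134 and 2688 cpm against 748 to 1399 in the others. The other genes named for secretion lay between -0.12 for Rab27b and 0.32 for Rab3a, with -0.11 for Rab3c, 0.25 for Rab3d and 0.28 for Rab27a.

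The change of the line difference from TRAP to ST was tested as an interaction. It was called for 8 members, 4 in each direction (5.02% and 5.79% of all genes), and all 8 were among the 13 genes called between the lines in TRAP. The value is the RBP4 over VGAT difference in ST minus that in TRAP, so that the TRAP libraries of the between-line comparison enter it too. It was 2.41 for Rab3b (SE 0.33, adjusted p 5.04e-06), 1.59 for Rab27a (0.0015), 2.30 for Rab37 (0.017) and 0.80 for Rab30 (0.0253). It was -1.12 for Rab26 (0.0118), -1.02 for Rab3d (0.00399), -0.94 for Rab36 (0.00159) and -0.745 for Rab33a (0.0463). Rab3a (0.43), Rab3c (0.069) and Rab27b (0.59) were not called. Rab3b, Rab27a, Rab3d and Rab36 kept the call in all 6 fits that left out a replicate number or the library labelled RBP4 ST replicate 4, whereas Rab37 kept it in 5, Rab26 in 4, Rab30 in 2 and Rab33a in 1 of the 6. The number of calls was 4 without replicate 2, 5 without replicate 4 and 8 without that ST library. Sums of cell type markers in the same libraries are given beside these values. The summed GABAergic markers were at 5755 to 7871 cpm in VGAT TRAP and 230 to 583 in RBP4 TRAP, but at 748 to 2688 in VGAT ST and 373 to 827 in RBP4 ST. The layer 5 sums were at 665 to 1034 cpm in RBP4 TRAP and 183 to 337 in VGAT TRAP, and at 653 to 1202 and 542 to 850 in ST, where the lines overlapped. Oligodendrocyte sums overlapped between the lines in TRAP, at 341 to 4702 cpm with RBP4 and 374 to 2162 with VGAT. They overlapped in ST as well, where the lowest library held 24510 cpm. The part of any of these cell types in the interaction was not tested.

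**Figure D5:**
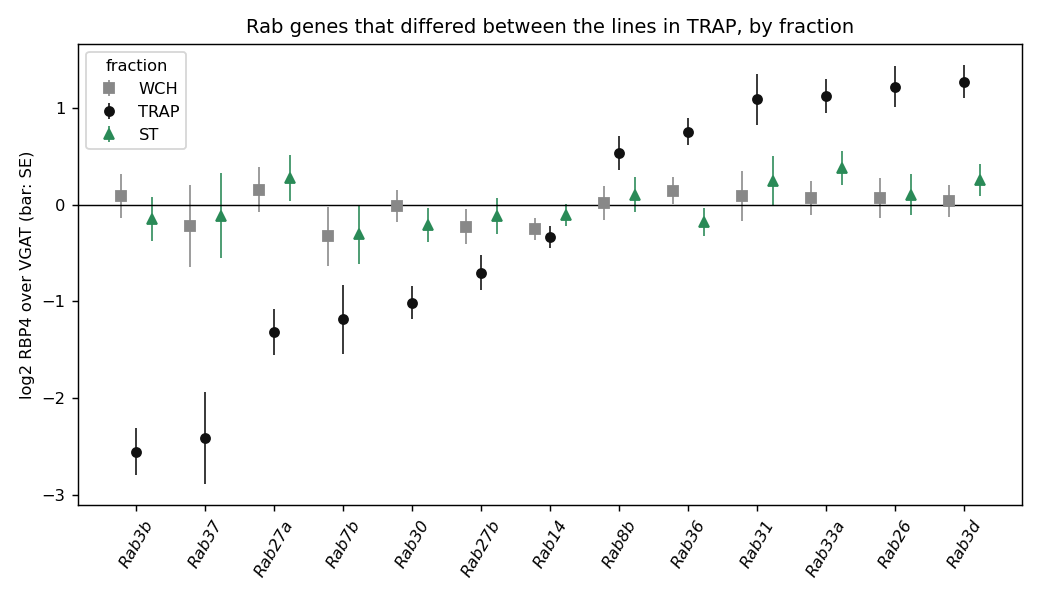
Log2 RBP4 over VGAT, with standard errors, of the 13 Rab genes called between the lines in TRAP, shown for WCH, TRAP and ST. The TRAP values spread from -2.55 for Rab3b to 1.27 for Rab3d, while no WCH or ST value was called.

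Following the study's intersections, a gene was a candidate for local translation when ST exceeded SNF and SNF exceeded WCH. It was a candidate for somatic translation when TRAP exceeded WCH and WCH exceeded SNF. Here an unadjusted p under 0.05 was needed for both parts, a looser threshold than the adjusted p that the study's methods give as their general rule. No Rab gene was a local candidate in either line. Of all genes, 71 of 17043 were in the RBP4 line and 220 of 16990 in the VGAT line (0.417% and 1.29%). The study reports more local candidates for both lines, so that the lists here leave out part of its genes despite the looser threshold. The reason was not tested, and no comparison with its lists is given here. In the RBP4 line 7 members were somatic candidates (12.7% of members, 5.94% of genes): Rab1a, Rab1b, Rab3a, Rab7, Rab11a, Rab24 and Rab33a. With VGAT 11 were (20% of members, 13.2% of genes): Rab1a, Rab1b, Rab3a, Rab3b, Rab4a, Rab7, Rab12, Rab24, Rab27b, Rab28 and Rab30. When both parts had to pass an adjusted p of 0.05, no member was a local candidate (0.188% and 0.789% of genes were). Somatic candidates were then 5 in the RBP4 line, without Rab1b and Rab33a (3.85% of genes), and 8 in the VGAT line, without Rab1a, Rab7 and Rab12 (12% of genes). The parts of the somatic rule share the WCH libraries and those of the local rule the SNF libraries, in each case with opposite signs. The shares of members are given as descriptions.

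The proteins that act on Rabs were followed with a list of 106 genes. In TRAP between the lines 14 of 103 tested were called higher and 13 lower in the RBP4 line, beside 12.9% and 15.1% of all genes. Osbpl1a, a Rab7 effector on late endosomes, was on the pyramidal side (698 ± 106 cpm in RBP4 TRAP and 335 ± 27.1 in VGAT TRAP, log2 1.06, adjusted p = 7.21e-07). With it were Sytl2, a Rab27 effector at the plasma membrane (92.0 ± 12.9 and 44.0 ± 9.36 cpm, log2 1.07, adjusted p = 3.42e-05), and Tbc1d1, a GTPase-activating protein (log2 1.02, adjusted p = 4.17e-05). On the GABAergic side was Tbc1d4, a GTPase-activating protein related to Tbc1d1 (2.47 ± 1.89 and 16.3 ± 2.65 cpm, log2 -2.72, adjusted p = 3e-07). With it were Rilp, which links Rab7 to dynein (2.48 ± 0.971 and 10.1 ± 1.71 cpm, log2 -2.01, adjusted p = 8.54e-06), and Tbc1d8 (log2 -1.22, adjusted p = 0.000156). In ST against SNF 22 of 102 genes of the list were called higher and 0 lower in the RBP4 line, and 40 of 103 higher and 1 lower in the VGAT line, beside 5.64% and 5.46% of all genes in the RBP4 line and 16.3% and 11.2% in the VGAT line. The medians of the list were 0.29 and 0.40 (all genes -0.05 and 0.08). The 8 genes of GDP dissociation inhibition, escort and prenylation gave 0 higher and 0 lower in the RBP4 line and 0 higher and 1 lower in the VGAT line. In SNF against WCH 3 of 102 were higher and 52 lower in the RBP4 line, and 4 of 103 higher and 71 lower in the VGAT line (13.4% and 36.1% of all genes, and 19.3% and 45.2%). In TRAP against WCH 2 and 36 of 102 were higher and lower in the RBP4 line and 13 and 50 of 103 in the VGAT line (8.37% and 31.5% of all genes, and 21% and 41.8%).

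Features that the choice of members did not use were read from GENCODE M21. The 55 Rab genes had 3' untranslated regions of 65 to 8596 bases with a median of 1975. The median was 1165 over 14714 genes tested in the RBP4 line. Median GC content was 45.2% in the members and 44.5% in those genes. For Rab30, Rab21 and Rab18, among others, the counted gene stopped short of the 3' end in GENCODE, so that their levels may be too low. Rab30, with the longest region, was counted up to base 92837117, while its GENCODE end is 92844535. Across the members, ST over SNF rose with the GC content of the 3' untranslated region (Spearman's rho 0.623 in VGAT, 0.211 in RBP4, n = 55). Across all genes rho was 0.294 and 0.164. For SNF over WCH the lines stood in the opposite order, at 0.278 in VGAT and 0.441 in RBP4. TRAP over WCH gave -0.0716 and -0.0632 with GC content, and -0.268 and -0.339 with the length of the region. With length, the other comparisons lay between -0.201 and 0.119. Whether the lines differed in these values was not tested. These are descriptions across genes of the same libraries and carry no test. Of the members 45 shared fewer than 10% of their 50-base windows with another annotated gene and 6 shared more than 20%: Rab43, Rab4b, Rab2b, Rab24, Rab20 and Rab33b, whose values are uncertain for that reason.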

How the data were processed

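RNA-seq libraries of 4 fractions from 5 pools of 2 mouse lines (40 libraries, 8 groups of 5) were read from the authors' deposited tables, which hold the read count, CPM and RPKM of 41388 genes per library. Per the study's methods, libraries from the SMARTer Ultra Low kit, which does not mark strand, were sequenced as single reads of 50 bases on a HiSeq-3000, aligned with STAR 2.0.4b and counted with featureCounts 1.4.5, unique and unambiguous reads only; the annotation release was not given in the sources used here. The deposited counts were used for every test. The authors' CPM and RPKM values, recomputed from the counts, differed by at most 4.07e-10 and 2.76e-10 and served as a check; the gene lengths behind the RPKM gave the values per kilobase.

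Here 390 mitochondrial, rRNA and tRNA genes were left out, library sizes were taken as the remaining counts without TMM factors, genes with 0.5 cpm in at least 3 libraries were kept, and edgeR 4.0.16 (R 4.3.3) fitted the quasi-likelihood model with the group alone: 1 fit for the 20 libraries of each line and 1 for the 30 WCH, TRAP and ST libraries. Called means a Benjamini-Hochberg adjusted p of at most 0.05 over all genes tested. The members, gene lists and comparisons were chosen with earlier results of these data known. Named genes were Rab3a to Rab3d, Rab27a and Rab27b and, for each comparison, the 4 members per direction of smallest p that were called without overlap of the groups (all called members where fewer were), with the 3 regulators per direction of smallest p in TRAP between the lines; others are named as chosen after their values were seen. Replicates of a line are separate pools, and same-numbered fractions came from the same pool per the study's methods: their deviations correlated by 0.306, 0.191 and 0.42 on average in the RBP4 line (TRAP with WCH, SNF with WCH, ST with SNF) and 0.393, 0.367 and 0.48 in the VGAT line, against -0.0467 to -0.111 for other numbers. The sources used here tie no pool of 1 line to a pool of the other, so numbers were not used to pair lines. On simulated counts with 200 genes changed 2-fold the fit recovered 103 in RBP4 TRAP against WCH, with 3 false calls, and 149 in ST between the lines, with 9. Sequences came from GENCODE M21 (GRCm38); 37 of the 55 members had the same start and end there as in the count tables. Alternatives were TMM factors, DESeq2 1.42.0 on its size factors, a likelihood ratio test, other filters, no genes left out, the replicate number as a block and leaving out replicates. Values per kilobase and summed levels carry no test.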

Additional observations from a re-analysis of the deposited data

Results flagged for a closer look

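Chance sets a library apart in about 5% of groups by Dixon's criterion, and the share found was similar, so that single cases may be chance. Among 256 groups of 5 libraries (32 named Rab genes in 8 groups), 16 held a library set apart from the other 4. Of these, 5 were in the VGAT SNF library of replicate 3, the library with 41.9% mitochondrial counts: Rab13 at 14.5 cpm (others 3.68 to 5.50), Rab15 at 167 (121 to 134), Rab22a at 76.8 (44.2 to 50.6) and Rab31 at 285 (121 to 160) were highest there, and Rab40c at 16.1 (19.5 to 20.6) lowest. Replicate 3 of the RBP4 line was also highest for Rab13, at 10.6 cpm in SNF (others 4.46 to 5.11) and 4.31 in TRAP (2.48 to 2.69).

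In RBP4 TRAP the library of replicate 5, which held 4702 cpm of oligodendrocyte markers, had the lowest Rab11a, 167 cpm against 284 to 298 in the others, and its homogenate the lowest Rab22a of RBP4 WCH, 44.2 cpm (58.1 to 61.0). In RBP4 ST, Rab1b was highest in the library labelled replicate 4 (70.1 cpm, others 40.8 to 44.4), Rab33a in replicate 5 (72.9, others 31.3 to 42.3) and Rab3b in replicate 1 (134.5 cpm, others 69.1 to 85.9). In the VGAT line Rab30 was lowest in ST replicate 3 (5.34 cpm, others 8.36 to 9.12), Rab37 highest in ST replicate 1 (3.38, others 1.59 to 1.95), and Rab6b highest in SNF replicate 1 (718, others 615 to 644) and in ST replicate 4 (1307, others 1038 to 1107).

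The change of the line difference from TRAP to ST passed its test for 8 genes: Rab3b (2.41), Rab37 (2.30), Rab27a (1.59), Rab30 (0.80), Rab26 (-1.12), Rab3d (-1.02), Rab36 (-0.94) and Rab33a (-0.745). The difference between the lines in TRAP over WCH passed for the same 8 genes, at -2.65 for Rab3b, -2.19 for Rab37, -1.47 for Rab27a, -0.998 for Rab30, 1.15 for Rab26, 1.24 for Rab3d, 0.61 for Rab36 and 1.05 for Rab33a. Both tests use the same TRAP libraries, so that 1 is no independent support of the other.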

How the results depend on the processing

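Of 149 alternative counts of called Rab genes, 134 were within 1.5 times the reported count, and of 1251 alternative log2 fold changes of named genes 1146 kept their direction and their side of the threshold, 69 lost a call, 8 gained one and 28 changed sign, 14 of these without a replicate or library. TMM factors gave 21 calls in SNF against WCH of the RBP4 line and DESeq2 gave 21 there and 27 in the VGAT line (35 and 44 as reported); no genes left out gave 19 in ST against SNF of the VGAT line (11), and leaving out the RBP4 ST library of replicate 4 gave 2 in the RBP4 line (4). Leaving out 1 replicate number gave 9 to 20 calls in TRAP against WCH of the RBP4 line, 1 to 6 in ST against SNF of the RBP4 line, 7 to 13 of the VGAT line, 4 to 9 in the interaction and 4 to 6 candidates of the RBP4 line. In the VGAT line 1 member became a local candidate with no genes left out and 1 without replicate 3. The causes were not tested.

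With the replicate number as a block the counts were 22, 37 and 6 in the RBP4 line (TRAP against WCH, SNF against WCH, ST against SNF) and 35, 44 and 14 in the VGAT line, and 7 and 13 candidates; it added Rab15 in ST against SNF of the RBP4 line (adjusted p 0.0195), and among the named genes changed the call of Rab3d there alone. Between the lines, where no source ties the numbers to each other, the block gave 0 calls in WCH, 16 in TRAP, 0 in ST and 10 in the interaction. Same-numbered pools of the lines correlated by 0.27, 0.199 and 0.0774 on average in WCH, TRAP and ST, with -0.289, -0.0403 and -0.581 for the lowest pair, and replicate 3 stood apart in SNF of both lines; whether the numbers mark something shared was not tested.

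Signs that changed belonged to values without a call, which reached 0.28 (SE 0.24) for Rab27a in ST between the lines. Rab27b in TRAP against WCH of the RBP4 line became 0.26 with TMM factors, 0.25 with DESeq2 and 0.0504 with no genes left out, and in ST against SNF 0.0888 and 0.0227 with no genes left out. In ST against SNF of the VGAT line Rab27a became -0.0085 with DESeq2, Rab3a -0.0803 with TMM factors and -0.12 with DESeq2, and Rab3b -0.0121 and -0.0448. In ST between the lines Rab27b became 0.014 with TMM factors and 0.032 with DESeq2, Rab3b 0.0063 and Rab3c 0.0136 with DESeq2. Leaving out replicates gave ranges that crossed 0: -0.16 to 0.18 for Rab27a and -0.0097 to 0.23 for Rab3a in ST against SNF of the RBP4 line, -0.0884 to 0.15 for Rab3a and -0.0854 to 0.30 for Rab3b in that of the VGAT line, -0.13 to 0.22 for Rab3d in WCH and -0.19 to 0.0802 for Rab3a in TRAP between the lines, and -0.10 to 0.45 for Rab27a, -0.27 to 0.0324 for Rab27b and -0.44 to 0.17 for Rab3b in ST between the lines. Rab3c in the interaction ranged from -0.0158, without RBP4 ST replicate 4, to 0.19.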
